A study of Mus musculus with 23 samples.

Results

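The clustered canonical histone genes were taken as every entry of the expression table whose symbol begins with Hist1h, Hist2h, Hist3h or Hist4h. This rule used the symbol alone and no measured value, and it found 68 of 24506 entries. Of these, 6 belong to the linker histone class H1, 18 to H2A, 19 to H2B, 12 to H3 and 13 to H4. RefSeq places the 54 Hist1 genes on chromosome 13, the 10 Hist2 genes on chromosome 3, the 3 Hist3 genes on chromosome 11 and Hist4h4 on chromosome 6.

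RNA was sequenced from mouse germinal vesicle (GV) oocytes, the oocytes of the ovary before meiotic maturation, and from zygotes and 2-cell embryos. The deleted gene was Cxxc1, which encodes CFP1, a CpG-binding subunit of the SETD1 complex that trimethylates lysine 4 of histone H3. GV oocytes came from 3-week wild-type females, 3-week Cxxc1fl/fl;Zp3-Cre females, 3-month wild-type females and 3-month Cxxc1fl/fl;Gdf9-Cre females. The mothers of the zygotes and 2-cell embryos were wild-type or Cxxc1fl/fl;Zp3-Cre, and all embryos were sired by wild-type males, so embryos of deletion mothers carry an intact paternal Cxxc1 allele. Zp3-Cre is active in growing oocytes and Gdf9-Cre from an earlier follicle stage, so the Cre driver and the age of the females changed together between the oocyte models. The age of the embryos' mothers is not in the labels. There were 3 libraries in a group, but only 2 of wild-type 2-cell embryos. The labels do not say whether replicate libraries were made from different females, so a p-value reflects just the scatter among these libraries, which may be technical.

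Canonical histone genes lie in dense clusters, and in dividing cells they are transcribed in S phase to package newly copied DNA. Most of their mRNAs end in a stem-loop in place of a poly(A) tail, and stem-loop binding protein (SLBP) and the U7 snRNP direct the cleavage that makes that end. Some members, among them several H2B genes, can also make polyadenylated transcripts from downstream ends. Oocytes store histone mRNA and protein for the first divisions of the embryo. Whether the libraries were selected for poly(A) is not given in the sources used here, so a value below is the part of a gene's RNA that the library captured, in FPKM (fragments scaled to transcript length and library size).

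The promoters of the members shared short sequence elements of replication-dependent histone genes. RefSeq (GRCm38.p6) gave a window of 300 bases, from 250 before to 50 after the start, for 62 of the 68 members. The CCAAT box (CCAAT or its reverse complement ATTGG) occurred in 53 of the 62 windows (85.5%), against 37.4% of all 32851 promoter windows of the same length. It was in every H1, H2A, H2B and H3 window searched, and in 3 of 12 H4 windows. A TATA box spelled TATAAA (or TTTATA) was present in 35 windows (56.5%), against 13.6% of all windows. The octamer core ATTTGCA (or TGCAAAT), an element known from H2B promoters, was found in 14 windows (22.6%), 7 of H2A and 7 of H2B genes, against 4.02% of all windows. In 10 head-to-head pairs of an H2A and an H2B gene the starts are 164 to 281 bases apart, so the partners' windows overlap. The same element can therefore be counted for both partners, and the H2A and H2B counts are not independent. Members had a median of 11 CpG dinucleotides per window and all promoters a median of 7. Below are the 150 bases upstream of the RefSeq start of 6 members on whose values the results turn, with the matches to these elements in capitals. Hist2h2aa1, Hist1h4a, Hist1h1c and Hist3h2a were among the genes with the largest rises in oocytes, Hist1h2bg was among those with the largest rises in embryos, and Hist1h3g rose in both oocyte comparisons and was called in neither embryo comparison.
Hist2h2aa1, chr3:96245347-96245496, plus strand: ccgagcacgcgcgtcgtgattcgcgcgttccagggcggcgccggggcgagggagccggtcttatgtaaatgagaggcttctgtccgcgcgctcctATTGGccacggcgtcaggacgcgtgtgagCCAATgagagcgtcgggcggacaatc
Hist1h4a, chr13:23761250-23761399, minus strand: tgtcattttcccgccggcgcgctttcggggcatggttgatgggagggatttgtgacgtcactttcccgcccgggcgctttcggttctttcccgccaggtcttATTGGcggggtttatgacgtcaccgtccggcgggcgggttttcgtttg
Hist1h1c, chr13:23738657-23738806, plus strand: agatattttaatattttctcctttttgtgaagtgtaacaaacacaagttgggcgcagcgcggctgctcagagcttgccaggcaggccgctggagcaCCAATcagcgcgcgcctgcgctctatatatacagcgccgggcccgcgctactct
Hist3h2a, chr11:58954535-58954684, plus strand: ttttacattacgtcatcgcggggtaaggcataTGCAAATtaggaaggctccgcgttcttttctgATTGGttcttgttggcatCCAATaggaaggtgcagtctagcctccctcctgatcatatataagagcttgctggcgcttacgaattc
Hist1h2bg, chr13:23571250-23571399, plus strand: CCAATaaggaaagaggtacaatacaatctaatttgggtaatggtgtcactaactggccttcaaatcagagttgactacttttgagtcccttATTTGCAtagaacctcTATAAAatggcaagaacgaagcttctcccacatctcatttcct
Hist1h3g, chr13:23535268-23535417, plus strand: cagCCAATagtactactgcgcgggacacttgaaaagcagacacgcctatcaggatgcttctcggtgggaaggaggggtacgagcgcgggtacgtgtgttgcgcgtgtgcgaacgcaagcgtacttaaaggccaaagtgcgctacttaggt
All 6 stretches hold a CCAAT box, the Hist2h2aa1 and Hist3h2a stretches hold 2 each, and the octamer core is in the Hist3h2a and Hist1h2bg stretches. Only the Hist1h2bg stretch holds TATAAA. A match describes the letters in the window and does not show that a factor binds there.

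The deletion was visible in Cxxc1 itself, whose FPKM fell from 39.8 ± 1.82 to 1.13 ± 0.315 in 3-week oocytes, from 36.7 ± 1.53 to 0.924 ± 0.205 in 3-month oocytes, from 28.0 ± 3.49 to 1.34 ± 0.25 in zygotes (SD, n = 3 each) and from 10.5 ± 0.779 (n = 2) to 1.98 ± 1.9 (n = 3) in 2-cell embryos (limma adjusted p from 4.4e-10 to 2.37e-06). FPKM totals ran from 295901 to 420415 per library, and FPKM does not record the read depth. Library 3 of the deletion 2-cell embryos stood apart, with 12333 genes at 1 FPKM or more against 10481 and 10187. Its Cxxc1 value was 4.16 FPKM against 0.626 and 1.17, and its 10 theca and stroma markers summed to 221 FPKM against at most 4.31 in the other 2. The lowest correlation within the group was 0.936, between libraries 2 and 3, and the lowest of library 1 was 0.942. In the other groups the lowest was 0.978. Which library gave the lowest value of library 1 is not known here, so these values cannot show whether library 3 stands apart. All 10 oocyte markers were at 1 FPKM or more in every GV library, and all 8 markers of the 2-cell stage were so in both wild-type 2-cell libraries. In bulk samples, a lower level per cell and fewer cells that express a gene cannot be told apart.

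Loss of maternal CFP1 was accompanied by more clustered histone RNA at every stage measured. The summed FPKM of the 68 genes was 305, 276 and 273 in the 3 libraries of 3-week wild-type oocytes and 617, 633 and 746 in those of Zp3-Cre oocytes. In 3-month oocytes it was 251, 237 and 207 in wild type and 672, 630.2 and 675 with Gdf9-Cre. Wild-type zygotes had sums of 68.3, 73.0 and 80.4, and zygotes of deletion mothers 418, 437 and 483. The 2-cell embryos had sums of 102 and 96.9 (wild type) and of 397, 406 and 449.6 (deletion mothers). The deletion and wild-type libraries did not overlap at any stage, and the ratio of group means was 2.34 in 3-week oocytes, 2.85 in 3-month oocytes, 6.04 in zygotes and 4.20 in 2-cell embryos. Class sums are described without a test. With median-of-ratios scaling in place of FPKM's own scaling, the zygote ratio was 3.96.

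As a ratio, and without a test, the summed level differed more between 3-week oocytes and zygotes in the wild type than after deletion. Wild-type zygotes were 74.1% below 3-week wild-type oocytes (73.9 against 284.9 FPKM), whereas deletion zygotes were 33.0% below Zp3-Cre oocytes (446 against 666 FPKM). Deletion 2-cell embryos were 6.39% below deletion zygotes, with overlapping libraries. The wild-type ratio of 0.259 became 0.488 with median-of-ratios scaling, which moved the median log2 difference of all genes in this comparison by 0.44. With that scaling the ratio of deletion zygotes over Zp3-Cre oocytes went from 0.670 to 0.895.

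**Figure D1:**
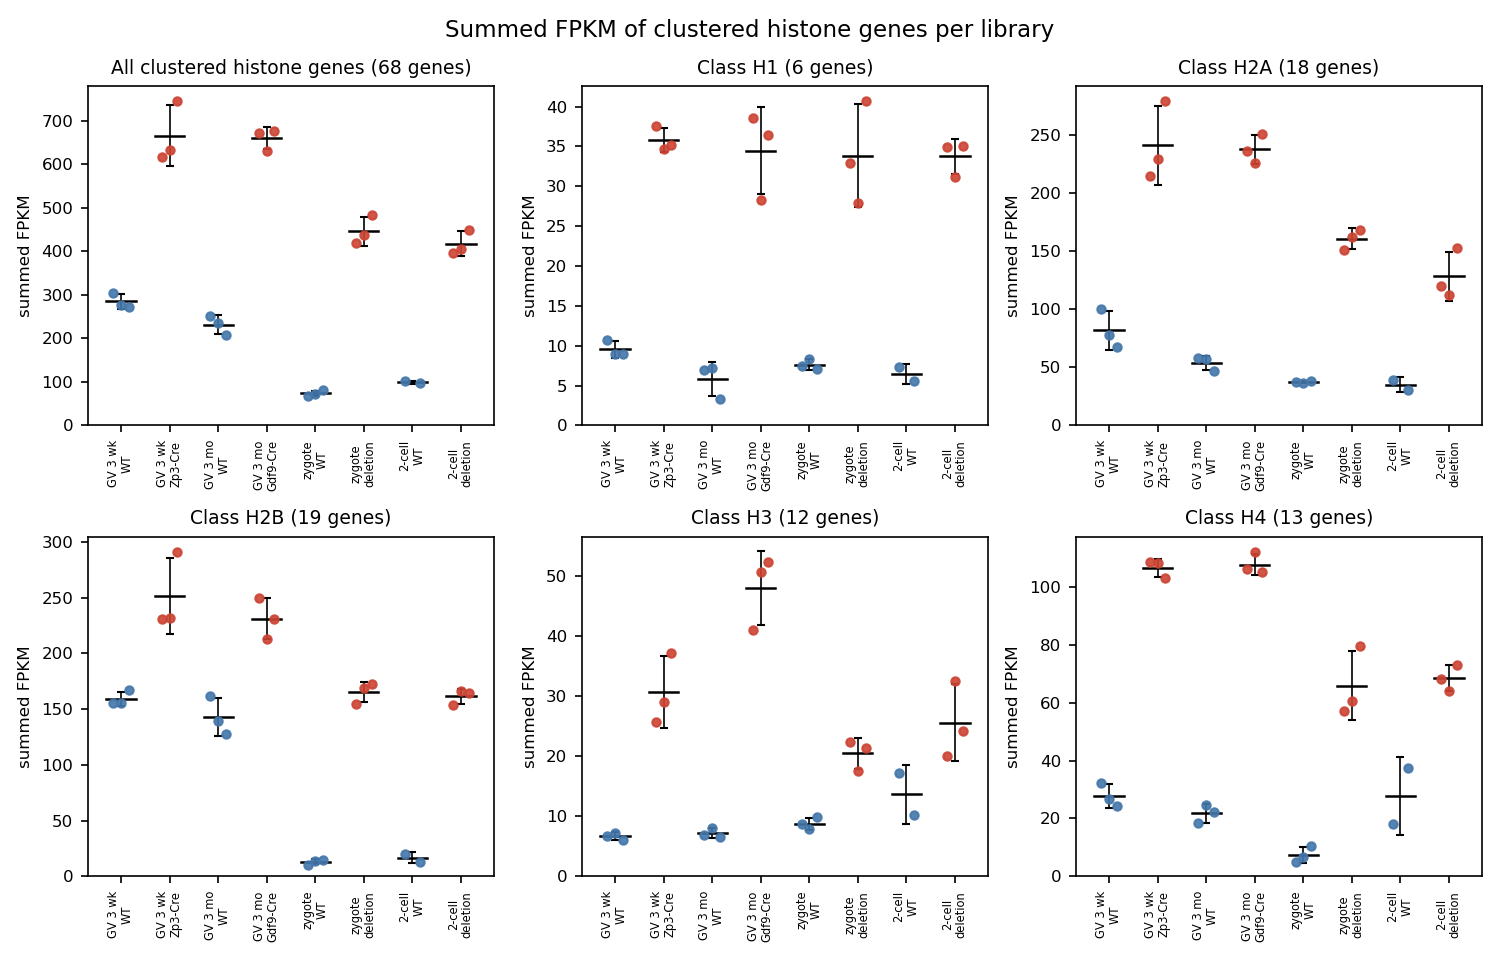
Summed FPKM of the clustered histone genes in each library (points; blue wild type, red deletion) for all 68 genes and for each class, with group mean and SD as bars. The red points lie above the blue points of the same stage in every panel, and the blue points of H2B drop from 155 to 167 FPKM in 3-week oocytes to 10.3 to 14.7 FPKM in zygotes.

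Single genes were tested with limma on log2(FPKM + 1) over all 13776 genes that reached 1 FPKM in 2 libraries, and a call needed a p below 0.05 after Benjamini-Hochberg adjustment. The filter kept 61 of the 68 members. The other 7 never exceeded 1.55 FPKM (Hist1h1b, Hist1h2ak, Hist1h2bb, Hist1h2bm, Hist1h2bq, Hist2h2ab and Hist2h2be), and Hist1h2bq was listed at 0 in all. A member that passed the filter only through a group with high values was bound to differ, so counts among the 61 are descriptions.

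In 3-week Zp3-Cre oocytes 29 of the 61 tested members rose, and these were all the members called. Among all genes tested 29.6% were called, 18.3% as higher and 11.3% as lower. The members' median log2 fold change was 0.80 and that of all genes tested 0.09. Of all 68 members, 62 had a higher mean in deletion oocytes, 5 a lower mean and 1 was at 0 in both. The libraries of 44 members did not overlap, with deletion higher, against 19.5% of all genes. With median-of-ratios scaling 19 members were called and with quantile normalization 15.

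In 3-month Gdf9-Cre oocytes 37 tested members rose and made up all the calls, while 49.5% of all genes were called, 34.2% as higher. The median log2 fold change was 0.96 for members and 0.20 for all genes. Of the 68, 37 had libraries that did not overlap with deletion higher, against 30.8% of all genes. Under quantile normalization 20 were called.

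In zygotes of deletion mothers 34 members rose and made up all the calls, against 46.7% of all genes called and 35.3% called higher. Of these 34 calls, 21 were kept under every alternative processing and 13 were lost under at least 1. Their median log2 fold change was 0.98 and that of all genes 0.22. Non-overlapping libraries with deletion higher were seen for 35 of 68 members and for 24.9% of all genes, and with deletion lower for 1 member and for 8.15% of all genes. In wild-type zygotes 23 of the 68 members had a mean of at least 1 FPKM and 3 a mean of at least 5, so many had little room to be lower.

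In 2-cell embryos of deletion mothers 28 members rose and 1, Hist4h4, fell, while 66.5% of all genes were called, 37.1% as higher and 29.4% as lower. The share of members called higher was not far from that of all genes, and the share called lower was below it. In wild-type 2-cell embryos 28 of the 68 members had a mean of at least 1 FPKM and 3 a mean of at least 5, so many had little room to fall. The median log2 fold change was 0.88 for members and 0.16 for all genes. Non-overlapping libraries with deletion higher were seen for 34 of 68 members, against 24.5% of all genes, and with deletion lower for 3 members, against 19.6% of all genes. The mean was higher in the deletion group for 57 of the 68 members and lower for 8. Without library 3 of the deletion group, 27 members were called.

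In all 4 deletion comparisons, none of which share libraries, 12 members rose: Hist1h1c of H1, Hist1h2ah, Hist2h2aa1 and Hist3h2a of H2A, Hist1h2ba, Hist1h2bk, Hist1h2bl and Hist3h2ba of H2B, and Hist1h4a, Hist1h4b, Hist1h4d and Hist1h4h of H4. Of all genes tested, 6.21% were called higher in each of the 4. No H3 gene was among the 12. Some of these calls were weak: Hist1h2bl lost its call in 6 of 12 alternatives at 3 weeks and in 8 of 12 at 3 months, and Hist1h4d in 5 of 12 at 3 weeks (limma adjusted p up to 0.107, 0.412 and 0.0999). For Hist1h2bl the libraries that decided a call were wild-type 1 and 2 and Zp3-Cre 3 at 3 weeks and wild-type 2 and 3 and Gdf9-Cre 1 and 3 at 3 months, and for Hist1h4d wild-type 1 and 3 and Zp3-Cre 1. Hist1h2ah lost its 3-month call with quantile normalization (adjusted p = 0.0969, limma).

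**Figure D2:**
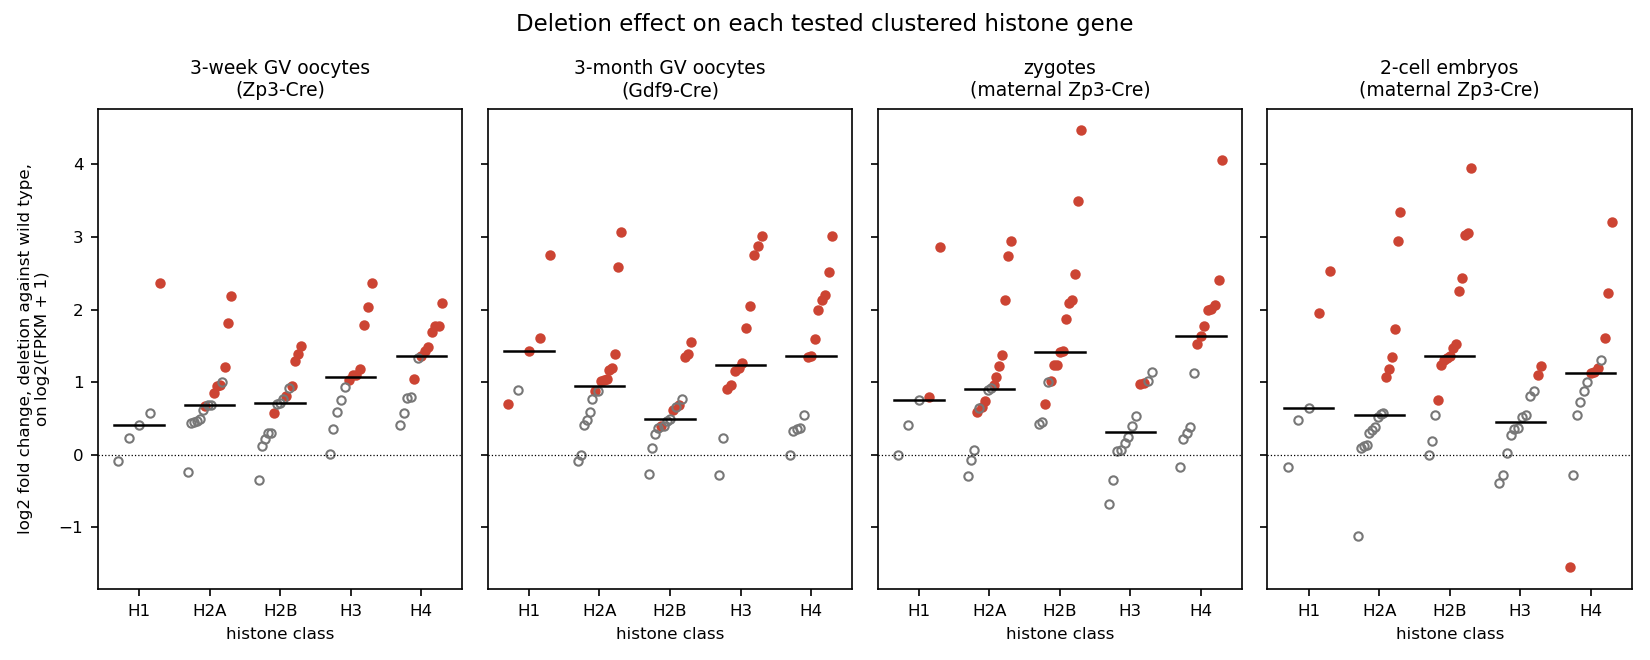
Log2 fold change of each of the 61 tested members, deletion against wild type, by class and comparison (filled red, called by limma; open grey, not called; horizontal bar, class median). Most points lie above the dotted line at 0. The highest class medians were those of H4 (1.37) and H3 (1.06) in 3-week oocytes and of H1 (1.43) and H4 (1.36) in 3-month oocytes. The H2B gene Hist1h2bc reaches 4.47 in zygotes.

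Linker histone H1 binds the DNA between nucleosomes, and Hist1h1c was its only member that rose in all 4 comparisons. The class sum was 10.8, 8.91 and 8.93 FPKM in 3-week wild-type oocytes and 37.6, 34.7 and 35.2 in Zp3-Cre oocytes. After deletion the group means were 35.8 and 34.5 FPKM in oocytes and 33.8 in both zygotes and 2-cell embryos, against wild-type means of 9.53, 5.83, 7.65 and 6.45. Without Hist1h1c the ratio of deletion to wild type was 1.39 in place of 3.76 in 3-week oocytes, 4.19 in place of 5.92 in 3-month oocytes, 2.09 in place of 4.43 in zygotes and 3.90 in place of 5.23 in 2-cell embryos.

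Hist1h1c was at 6.28, 3.08 and 6.01 FPKM in 3-week wild-type oocytes and at 30.5, 28.0 and 30.5 in Zp3-Cre oocytes. In 3-month oocytes it was at 3.73, 2.26 and 0.702 in wild type and at 22.7, 13.9 and 21.7 with Gdf9-Cre. Zygotes had 2.11, 1.66 and 2.54 in the wild type and 25.2, 14.3 and 27.3 in the deletion group. At the 2-cell stage the wild type had 1.81 and 1.82 and the deletion group 13.1, 13.2 and 20.8. Every deletion library was above every wild-type library of its stage. The log2 fold change was 2.37 ± 0.31 (SE), 2.75 ± 0.31, 2.86 ± 0.31 and 2.54 ± 0.35 in these 4 comparisons, with limma adjusted p of 1.43e-05, 9.66e-07, 2.39e-07 and 2.59e-06.

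Hist1h1a, the other abundant H1 gene, followed another course. It was at 3.63, 2.22 and 1.88 FPKM in 3-week wild-type oocytes and at 4.48, 4.41 and 2.35 with Zp3-Cre, and was not called (limma adjusted p = 0.351). In 2-cell embryos it was at 3.49 and 3.25 in the wild type and at 19.7, 16.4 and 12.3 in the deletion group, a log2 rise of 1.95 (adjusted p = 4.54e-05, limma). It also rose by 1.60 in 3-month oocytes. The zygote rise of 0.80 had overlapping libraries and lost its call in 9 of 12 alternatives, among them leaving out wild-type library 1 or 3 or deletion library 2 or 3 (adjusted p up to 0.558, limma). Hist1h1t, the H1 of spermatocytes, stayed at or under 1.32 FPKM in all 23 libraries.

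H2A is a core histone that pairs with H2B, and in oocytes its genes with the highest means were Hist1h2aa, Hist2h2aa1 and Hist3h2a. The class sum was 100.3, 77.6 and 67.4 FPKM in 3-week wild-type oocytes and 214, 229 and 279 with Zp3-Cre. In zygotes the wild type had 37.1, 36.3 and 38.4 and the deletion group 151, 162 and 169. The deletion to wild-type ratio was 2.95 in 3-week oocytes, 4.41 in 3-month oocytes, 4.31 in zygotes and 3.65 in 2-cell embryos. Tested members called higher numbered 7, 9, 10 and 6 of 16 in those comparisons.

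Hist2h2aa1 was at 22.2, 19.8 and 15.4 FPKM in 3-week wild-type oocytes and at 75.9, 86.3 and 111 with Zp3-Cre. The 3-month values were 15.4, 9.31 and 12 in wild type and 113, 100 and 112 with Gdf9-Cre. In zygotes it was at 0.277, 6.4 and 8.81 in the wild type and at 18.5, 16.9 and 21.5 in the deletion group. Its log2 fold change was 2.19 ± 0.47 at 3 weeks, 3.07 ± 0.47 at 3 months, 2.14 ± 0.47 in zygotes and 1.73 ± 0.52 in 2-cell embryos (SE; limma adjusted p = 0.00154, 2.54e-05, 0.000767 and 0.00658). Its 2-cell call was lost without library 1 of the wild-type 2-cell embryos, and its zygote call when only the zygotes were fitted (adjusted p = 0.0974 and 0.0682, limma). The values of Hist2h2aa1 and of its near-identical copy Hist2h2aa2 may be split between them: the zygote library with 0.277 FPKM for Hist2h2aa1 had 5.33 for Hist2h2aa2, which was near 0 in the other wild-type zygotes.

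Hist3h2a, the H2A gene of the Hist3 cluster, was at 19.6, 15.9 and 10.004 FPKM in 3-week wild-type oocytes and at 51.7, 60.4 and 51.5 with Zp3-Cre. In zygotes it was at 3.58, 0 and 1.08 in the wild type and at 18.1, 11.8 and 16.8 in the deletion group. At the 2-cell stage the wild type had 0 and 0.879 and the deletion group 5.48, 9.46 and 16.3. It was called in all 4 comparisons, with log2 rises of 1.82, 2.58, 2.94 and 2.94, and the 3-week call was lost with a pseudocount of 0.1 (adjusted p = 0.128, limma).

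Hist1h2aa, which encodes the testis-enriched variant TH2A that oocytes also store, was the most abundant member in wild-type zygotes. It was at 39.6, 29.4 and 34.3 FPKM in 3-week wild-type oocytes and at 59.9, 57.8 and 84.9 with Zp3-Cre. In zygotes it was at 12.3, 14.6 and 9.87 in the wild type and at 82.1, 103 and 77.4 in the deletion group. In 2-cell embryos the wild type had 8.47 and 2.14 and the deletion group 47.3, 52.6 and 64.3. The log2 rise was 2.74 ± 0.27 in zygotes and 3.34 ± 0.30 in 2-cell embryos (SE; limma adjusted p = 4.99e-08 and 6.93e-09). The 3-week rise of 0.94 lost its call without wild-type library 2 or without Zp3-Cre library 3 (limma adjusted p up to 0.0681), and the 3-month value of 0.59 was not called (adjusted p = 0.0741, limma).

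The remaining H2A genes were low, with group means of at most 6.51 FPKM. Hist1h2ah reached that level in deletion 2-cell embryos and rose in all 4 comparisons by 1.02 to 1.37 on the log2 scale. Hist1h2ap was the only member that differed between the wild-type ages: it was at 5.46, 2.48 and 1.54 FPKM at 3 weeks and at 0, 0.0418 and 0.0187 at 3 months, a log2 fall of 1.92 (limma adjusted p = 0.0282). That call was lost in 7 of 12 alternatives, among them leaving out library 1 or 2 of the 3-week group or any of the 3-month group (adjusted p up to 0.164, limma). In this age comparison 3.95% of all genes were called, and 1.70% were lower.

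H2B made up the largest part of the histone RNA in wild-type oocytes, 56.1% of the summed FPKM at 3 weeks and 61.7% at 3 months, and 17.5% in wild-type zygotes. After deletion its share was 37.7%, 35.1%, 37.1% and 38.7% in 3-week oocytes, 3-month oocytes, zygotes and 2-cell embryos. The class sum in wild type was 155, 156 and 167 FPKM at 3 weeks, 10.3, 13.9 and 14.7 in zygotes, and 20.03 and 13.0 in 2-cell embryos. Deletion oocytes had 231, 232 and 291 at 3 weeks, deletion zygotes 155, 169 and 173, and deletion 2-cell embryos 154, 166 and 165. The ratio of deletion to wild type was smallest of the 5 classes in oocytes (1.58 and 1.62) and largest in embryos (12.8 in zygotes and 9.79 at the 2-cell stage). Among the 15 tested H2B genes 6 rose in each oocyte comparison and 12 in each embryo comparison.

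Hist1h2bc alone held 34.0% of the histone FPKM in 3-week wild-type oocytes. It was at 97.0, 92.5 and 101 FPKM there and at 104, 114 and 142 in Zp3-Cre oocytes, and was not called (log2 0.30 ± 0.14 SE, limma adjusted p = 0.123). In zygotes it was at 4.46, 3.08 and 2.46 in the wild type and at 89.7, 93.5 and 96.7 in the deletion group. In 2-cell embryos the wild type had 4.06 and 3.94 and the deletion group 73.8, 76.6 and 78.6. Deletion zygotes thus had Hist1h2bc values close to those of wild-type oocytes, and wild-type zygotes did not. The log2 rise was 4.47 ± 0.14 in zygotes, a 28.0-fold ratio of means, and 3.95 ± 0.16 in 2-cell embryos, a 19.1-fold ratio (SE; limma adjusted p = 4.74e-15 and 1.04e-13). Without this gene the zygote ratio of the H2B sum was 7.49. The 3-month rise of 0.39 lost its call in 5 of 12 alternatives, among them leaving out wild-type library 2, wild-type library 3 or Gdf9-Cre library 1 (limma adjusted p up to 0.438).

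Hist1h2bg and Hist1h2be had the same order of values at lower levels. Hist1h2bg was at 14.5, 16.1 and 17.3 FPKM in 3-week wild-type oocytes, at 16.4, 12.3 and 25.9 in Zp3-Cre oocytes, at 0.463, 0.691 and 0.576 in wild-type zygotes and at 17.9, 16.1 and 16.2 in deletion zygotes. The oocyte groups overlapped and the zygote groups lay far apart, with a log2 rise of 3.49 ± 0.20 (SE; limma adjusted p = 2.74e-11). Hist1h2be was at 5.41, 5.34 and 6.23 FPKM in 3-week wild-type oocytes, at 0.498, 0.131 and 0.620 in wild-type zygotes and at 8.11, 6.47 and 6.05 in deletion zygotes, a log2 rise of 2.48 ± 0.29 (SE; limma adjusted p = 6.82e-07). In 2-cell embryos Hist1h2bg rose by 3.06 and Hist1h2be by 2.25 on the log2 scale. In RefSeq, 6 members span more than 1000 bases and all are H2B genes, among them Hist1h2bc with 8282 bases and Hist1h2be with 37455. Hist1h2bg is not among them.

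Other H2B genes rose at all stages. Hist3h2ba, the neighbour of Hist3h2a in the Hist3 cluster, was at 20.6, 19.1 and 16.8 FPKM in 3-week wild-type oocytes and at 53.8, 55.1 and 55.7 with Zp3-Cre. In 2-cell embryos it was at 5.43 and 1.54 in the wild type and at 30.2, 35.4 and 30.6 in the deletion group. Its log2 rises were 1.5, 1.56, 2.09 and 3.03 in the 4 comparisons (limma adjusted p from 6.3e-07 to 0.00223). Hist1h2ba, which encodes the testis-enriched variant TH2B, was at 2.73, 2.21 and 1.42 FPKM in 3-week wild-type oocytes and at 5.41, 4.47 and 13.9 with Zp3-Cre, and its log2 rises ran from 1.24 to 1.47. Its 3-week call was lost without Zp3-Cre library 3 and its zygote call without deletion library 2 (limma adjusted p up to 0.0683 and 0.0849).

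**Figure D3:**
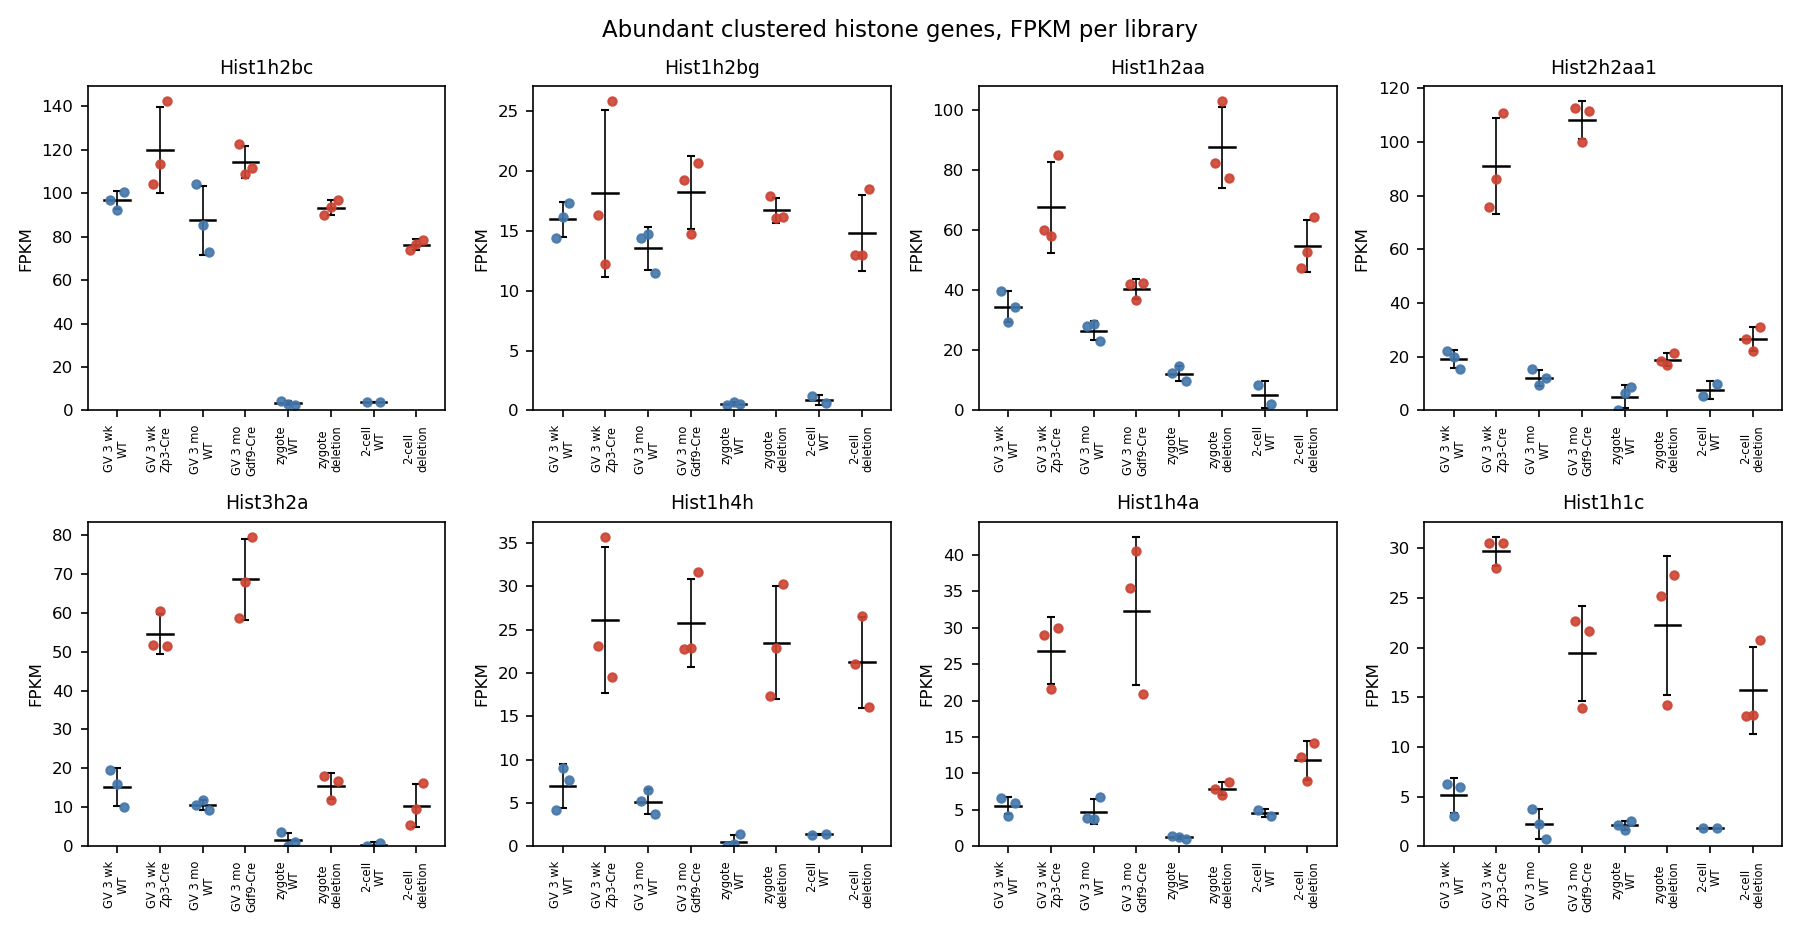
FPKM of 8 abundant members in each library (points; blue wild type, red deletion; bars, mean and SD). Hist1h2bc and Hist1h2bg are low only in the wild-type embryo groups (Hist1h2bc 2.46 to 4.46 FPKM, against at least 72.9 elsewhere), whereas Hist2h2aa1, Hist3h2a, Hist1h4a and Hist1h1c are higher in deletion oocytes than in wild-type oocytes.

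H3, the core histone whose lysine 4 CFP1's complex methylates, was the class with the least clustered RNA in 3-week wild-type oocytes. Its sum was 6.79, 7.26 and 6.03 FPKM there and 25.7, 29.1 and 37.3 in Zp3-Cre oocytes. In 3-month oocytes it was 6.87, 8.08 and 6.59 in wild type and 41.0, 50.8 and 52.4 with Gdf9-Cre. The ratios of 4.59 and 6.69 were the largest of any class in oocytes. In embryos they were the smallest, 2.34 in zygotes and 1.87 at the 2-cell stage, where the wild-type sums were 17.2 and 10.2 and the deletion sums 20.1, 32.6 and 24.2. The 12 H3 genes all passed the filter, and 7 and 10 of them rose in the oocyte comparisons, 2 in each embryo comparison.

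Hist1h3g was at 0, 0.468 and 0.502 FPKM in 3-week wild-type oocytes and at 3.56, 5.08 and 4.44 with Zp3-Cre. In 3-month oocytes it was at 0, 0.633 and 1.33 in wild type and at 12.6, 11.6 and 10.9 with Gdf9-Cre. Embryo libraries of both genotypes were at or under 1.87 FPKM and overlapped. The log2 rise was 2.03 ± 0.32 at 3 weeks and 3.02 ± 0.32 at 3 months (SE; limma adjusted p = 0.000117 and 4.87e-07), against 0.53 in zygotes and 0.53 in 2-cell embryos (adjusted p = 0.204 and 0.211, limma). The H3 genes with the highest mean over all libraries were Hist2h3c2 and Hist2h3c1, near-identical copies. Hist2h3c1 was at 0.00295, 0.0025 and 2.10 FPKM in 3-week wild-type oocytes and at 4.07, 4.4 and 14.8 with Zp3-Cre, and Hist2h3c2 overlapped between these groups. Values may be split between the copies here too. Hist2h3c2 was at 0.00168 FPKM in the wild-type library with 2.10 for Hist2h3c1, and at 0.00471 in the Zp3-Cre library with 14.8. A rise of 1 copy alone cannot be read from them. The Hist2h3c1 call was lost without any 1 of 3 libraries, wild-type 1 or 2 or Zp3-Cre 3 (limma adjusted p up to 0.101).

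H4, the core histone encoded by many genes for nearly the same protein, had a higher sum after deletion at every stage. Its sum was 32.3, 26.8 and 24.2 FPKM in 3-week wild-type oocytes and 109, 108 and 103 with Zp3-Cre, and 18.4, 24.7 and 22.2 against 106, 112 and 105 at 3 months. Wild-type zygotes had 4.89, 6.59 and 10.5 and deletion zygotes 57.4, 60.8 and 79.6. In 2-cell embryos the sums were 18.1 and 37.4 in the wild type and 68.4, 64.3 and 73.2 in the deletion group. Ratios were 3.85, 4.96, 9.02 and 2.47, and 8, 8, 8 and 6 of the 13 genes rose.

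Hist1h4h had the largest zygote rise of the class. It was at 4.19, 9.05 and 7.69 FPKM in 3-week wild-type oocytes and at 23.1, 35.7 and 19.6 with Zp3-Cre. In zygotes it was at 0, 0.230 and 1.41 in the wild type and at 17.3, 22.9 and 30.3 in the deletion group, and in 2-cell embryos at 1.30 and 1.43 against 21.1, 26.5 and 16.0. Its log2 rise was 1.78 ± 0.31 at 3 weeks, 2.13 ± 0.31 at 3 months, 4.06 ± 0.31 in zygotes and 3.21 ± 0.35 in 2-cell embryos (SE; limma adjusted p = 0.000296, 1.8e-05, 1.86e-09 and 1.2e-07).

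Hist1h4a was at 6.57, 4.22 and 5.98 FPKM in 3-week wild-type oocytes and at 29.0, 21.6 and 30.0 with Zp3-Cre, a log2 rise of 2.08 ± 0.23 (SE; limma adjusted p = 2.21e-06). In 3-month oocytes it was at 3.82, 3.71 and 6.73 against 35.4, 40.6 and 20.9. Zygote values were lower than oocyte values in both genotypes, with 1.44, 1.30 and 0.975 in wild-type zygotes and 7.87, 7.02 and 8.87 in deletion zygotes. It rose in all 4 comparisons, and least in 2-cell embryos (log2 1.19).

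Among the H4 genes, Hist1h4i and Hist4h4 departed from the others at the 2-cell stage, with lower means after deletion. Hist1h4i was at 6.14 and 22.5 FPKM in the wild-type 2-cell libraries and at 7.20, 8.12 and 15.5 in the deletion libraries, which overlapped and were not called (log2 -0.27, limma adjusted p = 0.662). In zygotes it had risen by 2.40. Hist4h4, the single Hist4 member, was at 2.97 and 3.37 in wild-type 2-cell embryos and at 0.701, 0 and 0.698 after maternal deletion, and it fell by 1.55 on the log2 scale (limma adjusted p = 0.000805). It was low throughout, at 3.37 FPKM or less.

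**Figure D4:**
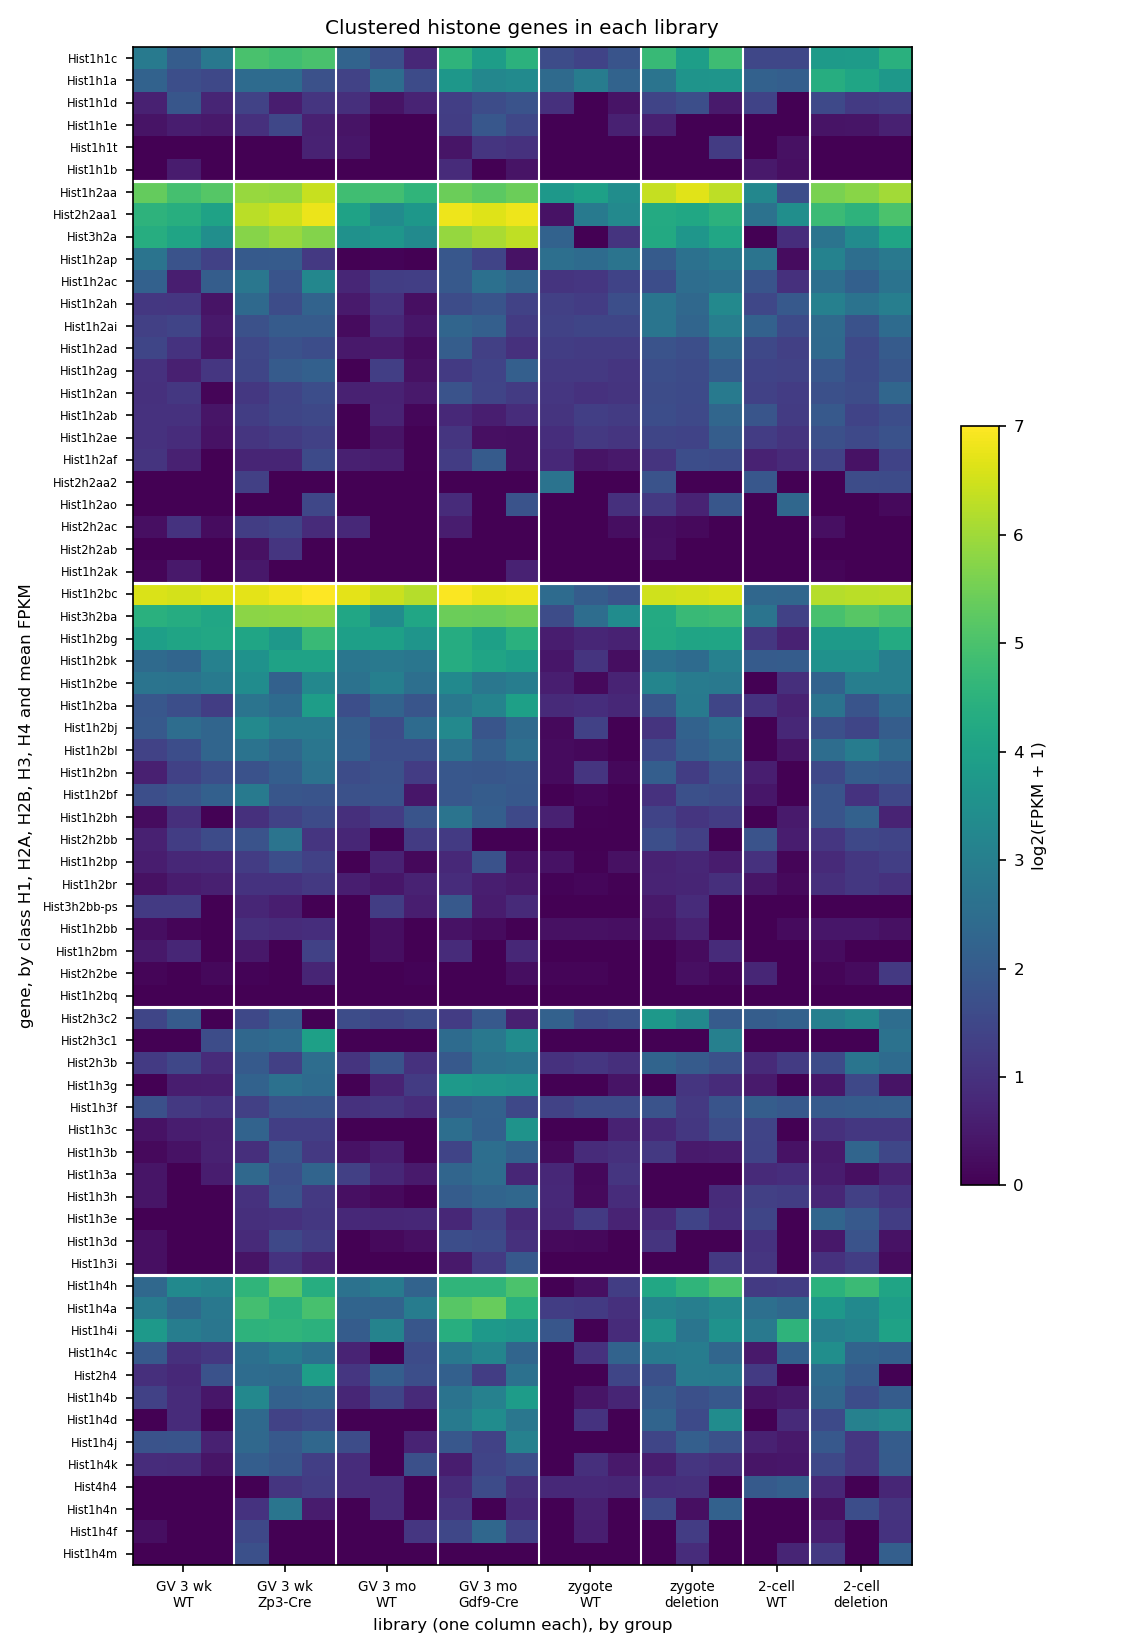
Log2(FPKM + 1) of all 68 members (rows, by class and mean level) in each of the 23 libraries (columns, by group). Few members per class carry most of the signal, and deletion columns are brighter than the wild-type columns beside them. The wild-type zygote columns are dark in H2B and H4, whose class sums averaged 13.0 and 7.31 FPKM. The H1 and H3 sums in wild-type zygotes were also low, with means of 7.65 and 8.75 FPKM.

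The wild-type course from oocyte to 2-cell embryo gives the background for the embryo comparisons, with which it shares the wild-type zygote and 2-cell libraries. From 3-week wild-type oocytes to wild-type zygotes 19 of 61 tested members fell and 3 rose, while 70.1% of all genes were called, 50.7% as lower and 19.4% as higher. The share of members that fell was thus below that of all genes. Hist1h2bc fell by 4.52, Hist1h2bg by 3.43, Hist3h2a by 2.89 and Hist2h2aa1 by 2.14 on the log2 scale (limma adjusted p from 8.28e-16 to 0.000381). The ratio of class sums, zygotes over oocytes, was 0.0814 for H2B, 0.263 for H4, 0.456 for H2A, 0.802 for H1 and 1.31 for H3. With median-of-ratios scaling these became 0.153, 0.495, 0.857, 1.51 and 2.46, so that H2B and H4 stayed well below 1, H2A came near it and H1 changed direction.

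From wild-type zygotes to wild-type 2-cell embryos 5 members rose and 1 fell, against 68.5% of all genes called, 44.5% as higher and 24.0% as lower. Hist1h4i rose most, by 2.78 on the log2 scale, from 2.69, 0 and 0.811 FPKM to 6.14 and 22.5 (limma adjusted p = 9.59e-05). Hist1h2aa fell by 1.27, and this call was lost without wild-type 2-cell library 2 (limma adjusted p up to 0.0917 over its alternatives). The summed ratio of 1.35 became 0.991 with median-of-ratios scaling, and 18 members, 17 of them lower, were called with quantile normalization.

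Whether the deletion effect itself differed between stages was tested as a difference of differences. Between zygotes and 3-week oocytes 9 members differed, 6 with a larger and 3 with a smaller effect in zygotes, against 29.4% of all genes, 22.4% larger and 7.01% smaller. The effect was larger in zygotes for Hist1h2bc by 4.17 ± 0.20, Hist1h2bg by 3.38 ± 0.29, Hist1h4h by 2.28 ± 0.44 and Hist1h2be by 2.26 ± 0.41 on the log2 scale (SE; limma adjusted p = 1.22e-11, 2.59e-08, 0.000534 and 0.000301). The 3 with a lower effect in zygotes were H3 genes, Hist1h3a (-2.46), Hist1h3h (-1.52) and Hist1h3g (-1.50), the first 2 named after their values were seen. These first 2 had lower means in deletion zygotes than in wild-type zygotes, and neither was called there. The means were 0 against 0.649 FPKM for Hist1h3a and 0.272 against 0.584 for Hist1h3h, all near the floor. The Hist1h3g difference lost its call without wild-type library 1 of the oocytes or deletion library 1 of the zygotes (limma adjusted p up to 0.306 over its alternatives).

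Between 2-cell embryos and zygotes 5 members differed, 1 with a larger and 4 with a smaller effect in 2-cell embryos, against 53.9% of all genes, 21.5% larger and 32.4% smaller. Hist1h4i had the largest difference, -2.68 ± 0.71 on the log2 scale (SE; limma adjusted p = 0.00329), which gave an adjusted p of 0.0508 without wild-type 2-cell library 2. Hist1h1a had the higher effect, by 1.15 (adjusted p = 0.0398, limma), and Hist1h2bc a lower one, by -0.52 (adjusted p = 0.0448, limma). Each of the 5 calls was lost without wild-type 2-cell library 2, and the Hist1h2bc difference was 0.57 with quantile normalization. Over their alternatives the adjusted p reached 0.119 for Hist1h1a and 0.275 for Hist1h2bc (limma).

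Between 3-month Gdf9-Cre and 3-week Zp3-Cre oocytes limma called 0 of the 61 members at an adjusted p under 0.05, against 4.89% of all genes (3.20% higher and 1.68% lower). At an unadjusted p under 0.05 there were 9, and the lowest adjusted p was 0.0644, for Hist1h3c. A p that misses the threshold does not show that the models act alike.

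Neighbouring genes differed in FPKM in several pairs. RefSeq puts 10 pairs of members head to head with starts at most 1000 bases apart, and each pair joins an H2A and an H2B gene. The starts of Hist1h2ae and Hist1h2bg are 180 bases apart, and their means in 3-week wild-type oocytes were 0.712 and 16.0 FPKM. In deletion zygotes these means were 2.2 and 16.7, and in wild-type zygotes 1.08 and 0.576. Hist1h2ba and Hist1h2aa, the TH2B and TH2A genes, have starts 281 bases apart and means of 2.12 and 34.4 FPKM in 3-week wild-type oocytes and 3.62 and 87.4 in deletion zygotes. How far the capture of a transcript differs between such partners is not known, and values near 0 cannot be ranked.

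**Figure D5:**
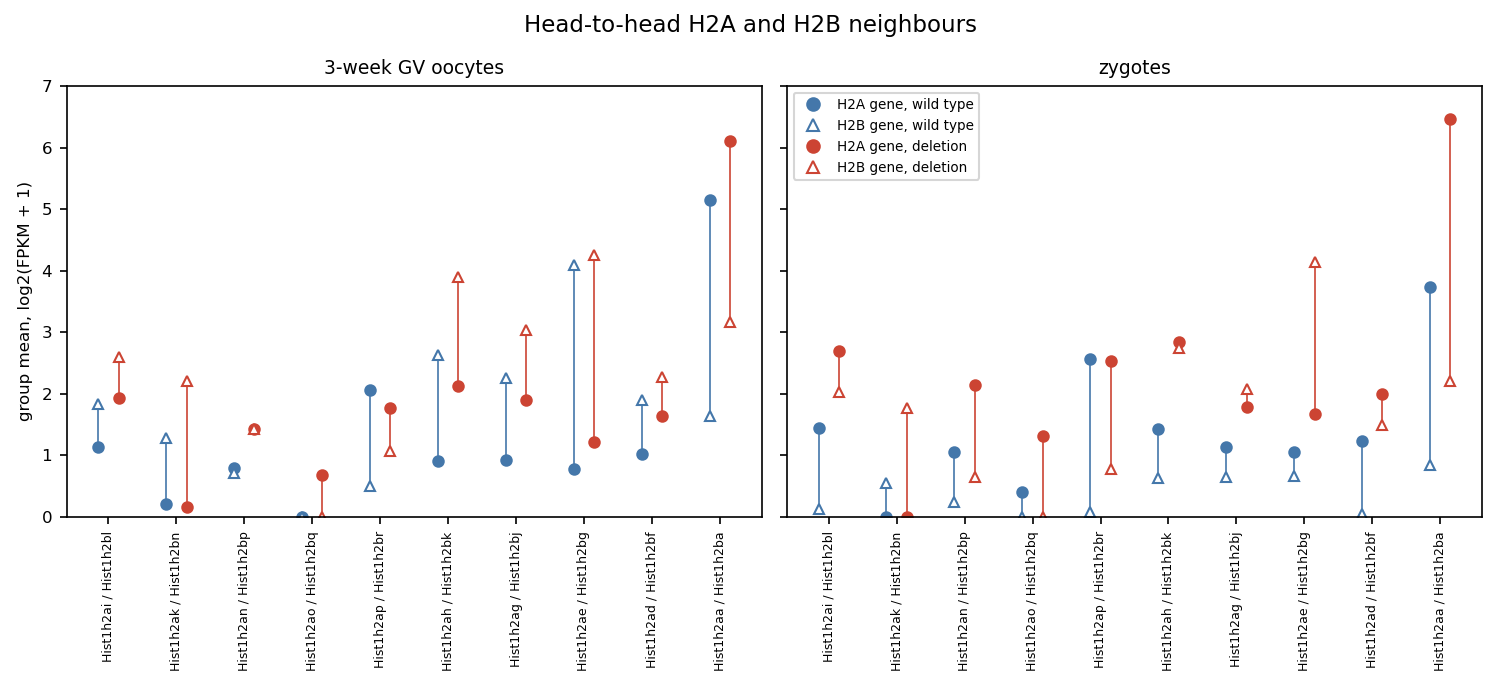
Group means, as log2(FPKM + 1), of the H2A (circle) and H2B (triangle) gene of each of the 10 head-to-head pairs in 3-week oocytes and zygotes (blue wild type, red deletion; a line joins the partners). Partners lie far apart in several pairs, as for Hist1h2ae and Hist1h2bg with 0.712 and 16.0 FPKM in 3-week wild-type oocytes.

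For the 3 related lists that follow, the shares of all genes called higher and lower were 18.3% and 11.3% in 3-week oocytes, 34.2% and 15.2% in 3-month oocytes, 35.3% and 11.4% in zygotes and 37.1% and 29.4% in 2-cell embryos. Many of the lists' counts lay near those shares, and nothing particular to a list is read from them. The first list holds genes that process or transcribe histone pre-mRNA. Of 35 tested from a list of 36, 7 rose and 3 fell in 3-week oocytes, 17 and 5 in 3-month oocytes, 11 and 6 in zygotes, and 14 and 14 in 2-cell embryos. Slbp, which encodes the stem-loop binding protein, was at 586 ± 11 FPKM in 3-month wild-type oocytes and fell to 418 ± 33.5 (log2 -0.49), and in zygotes it fell from 924 ± 27.3 to 624 ± 23.2 (log2 -0.56; SD, n = 3; limma adjusted p = 0.00195 and 0.000493). In 3-week oocytes it was at 442 ± 20.6 and 369 ± 16.8 and not called (adjusted p = 0.105, limma). In 2-cell embryos it rose from 122 ± 18.3 (n = 2) to 403 ± 93.5 (n = 3; log2 1.70, adjusted p = 8.83e-10, limma). Slbp is given for its role and was named with its values known. Lsm1 rose in both oocyte models, by 1.17 and 1.46, and Cpsf4, a subunit of the cleavage and polyadenylation factor, rose by 0.73 in 3-week oocytes and by 1.76 in zygotes. Papolg, a poly(A) polymerase, fell by 1.28 in 3-month oocytes. In 2-cell embryos Ncbp1, of the cap-binding complex, fell by 3.80 and Cstf2t by 3.56.

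Most histone genes outside the clusters are transcribed independently of replication and are polyadenylated, while H2afx can also make a stem-loop mRNA. Of 12 tested, 3 rose and 1 fell in 3-week oocytes, 6 and 1 in 3-month oocytes, 6 and 1 in zygotes and 6 and 3 in 2-cell embryos. H1f0 rose from 45.9 ± 4.08 to 82.6 ± 11.6 FPKM in 3-week oocytes (log2 0.83), H2afz from 16.2 ± 1.48 to 54.8 ± 10.8 in 3-month oocytes (log2 1.68), and H3f3a, which encodes a replacement H3, from 56.0 ± 8.89 to 148 ± 39.2 in zygotes (log2 1.36; SD, n = 3 each). H1foo, the oocyte linker histone, rose from 70.6 ± 15.8 FPKM (SD, n = 2) to 479 ± 8.53 (n = 3) in 2-cell embryos, while H2afv fell by 3.19 and H2afz by 2.49. All of these had a limma adjusted p of at most 2.62e-05.

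Of 24 S-phase genes, 7 rose and 1 fell in 3-week oocytes, 12 and 5 in 3-month oocytes, 12 and 3 in zygotes and 8 and 9 in 2-cell embryos. Pcna, the sliding clamp of DNA replication, rose from 148 ± 0.596 to 220.1 ± 14.3 FPKM in 3-week oocytes and from 134 ± 2.79 to 263 ± 12.2 at 3 months (SD, n = 3). Ccne1, cyclin E, fell from 157 ± 13.2 (n = 2) to 9.24 ± 1.66 FPKM (n = 3) in 2-cell embryos.

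Markers of stage and of other cells moved with some of these groups. Of 10 oocyte markers 8 rose in deletion zygotes and 10 in deletion 2-cell embryos, where the list summed to 4661 to 5133 FPKM against 1733 and 2074 in wild type. Of 8 markers of the 2-cell stage 8 fell in deletion 2-cell embryos, with sums of 16.5 to 37.9 FPKM against 152 and 193. The 21 granulosa and cumulus markers summed to 214 to 308 FPKM in Gdf9-Cre oocytes and 187 to 195 in 3-month wild-type oocytes, and 10 of 16 tested rose, with Tnfaip6 listed at 0 in the former and Ptx3 and Tnfaip6 in the latter. The 3-week groups overlapped on that list (175 to 189 against 179 to 197 FPKM), and in zygotes it summed to 188 to 196 after deletion and 146 to 147 in wild type, with 4 of 16 higher. Oviduct epithelium markers (6 genes) summed to 6.24 to 12.8 FPKM in Zp3-Cre and 1.30 to 2.49 in wild-type 3-week oocytes, and to 27.3 to 43.2 and 2.48 to 3.18 in the 3-month groups, with 2 of 5 tested higher at each age. The 10 theca and stroma markers summed to 5.70 to 9.65 against 2.15 to 2.18 FPKM at 3 weeks, 8.85 to 12.2 against 1.68 to 1.88 at 3 months and 3.54 to 6.12 against 0.884 to 1.19 in zygotes, with 1 of 3 tested higher each time. In oocytes the markers of the 2-cell stage also differed, with 18.1 to 26.1 against 4.20 to 4.85 FPKM at 3 weeks (4 of 8 higher) and 38.3 to 49.98 against 4.61 to 5.54 at 3 months (5 of 8 higher). The part of these differences in the histone results was not tested.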

How the data were processed

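RNA-seq of mouse oocytes and embryos was analysed from 1 table of 24506 genes and 23 libraries. The deposited values are FPKM made by the authors. The submitters' processing notes name CASAVA 1.4, TopHat2 2.0.12, Cufflinks 2.2.1 and SAMtools, with mm9 and mm10, and do not say which build served the RNA, so no coordinates were taken from the table. For poly(A) selection and strand, the sources used here say nothing. Read depth is unknown, so no counting interval is given.

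The deposited FPKM were taken as log2(FPKM + 1). Genes with at least 1 FPKM in at least 2 libraries were kept (13776). One limma model (3.58.1, R 4.3.3, empirical Bayes trend) over all 8 groups gave 10 comparisons with Benjamini-Hochberg adjustment over all genes, and was tested on simulated data. Alternatives were pseudocount 0.1, no filter, median-of-ratios and quantile scaling, only the groups compared, a replicate block and leaving out each library. Class sums are FPKM sums without a test.

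Genes named were, per comparison, up to 4 called members with the largest rise and fall at a mean of at least 5 FPKM, the 2 most abundant members per class, the male germ cell histones, and up to 3 called genes per related list. Others were chosen after their values were seen, or as examples of a class: Hist1h2ah, Hist1h2ap, Hist1h2be, Hist2h2aa2, Hist4h4, the pairs, the zygote comparisons of H3 genes, Slbp and the earlier comparisons of genes named elsewhere. Members and lists were chosen with earlier results of these data known. Near-identical copies may share reads.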

Additional observations from a re-analysis of the deposited data

Results flagged for a closer look

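The deletion effect differed between stages by limma's test of the difference itself for 6 members named here between zygotes and 3-week oocytes. The difference, as log2 in zygotes minus oocytes, was 4.17 for Hist1h2bc, 3.38 for Hist1h2bg, 2.28 for Hist1h4h, 2.26 for Hist1h2be and 1.80 for Hist1h2aa, and it was -1.50 for Hist1h3g. Between 2-cell embryos and zygotes it was 1.15 for Hist1h1a, -0.52 for Hist1h2bc and -2.68 for Hist1h4i. The wild-type zygote libraries enter both sets of differences.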

How the results depend on the processing

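The summed ratio of deletion to wild type stayed above 1 in all 4 comparisons under the alternatives run. Without the most abundant member it was 2.90 in 3-week oocytes, 3.78 in 3-month oocytes, 5.0 in zygotes and 3.57 in 2-cell embryos, and with median-of-ratios scaling 2.40 in 3-month oocytes, 3.96 in zygotes and 3.45 in 2-cell embryos. Leaving out 1 library gave 2.2 to 2.42, 2.70 to 2.97, 5.79 to 6.31 and 4.04 to 4.31. For wild type it gave 0.248 to 0.269 (zygotes over oocytes), 1.30 to 1.41 (2-cell over zygotes) and 0.779 to 0.857 (3 months over 3 weeks). The wild-type 2-cell ratio turned to 0.991 with median-of-ratios scaling, and the H1 ratio of zygotes over oocytes to 1.26 without Hist1h1c and 1.51 with median-of-ratios scaling.

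Counts of called members in 3-week oocytes were 19 with median-of-ratios scaling, 15 with quantile normalization and 20 to 25 without 1 library, and in 3-month oocytes 20 with quantile normalization and 31 to 35. Calls kept under every alternative numbered 11 of 29 in 3-week oocytes, 19 of 37 in 3-month oocytes, 21 of 34 in zygotes and 19 of 29 in 2-cell embryos. Without 1 library, zygotes gave 27 to 34, 2-cell embryos 24 to 31, wild-type zygotes over oocytes 18 to 20, wild-type 2-cell embryos over zygotes 6 to 9, and the effect in zygotes against oocytes 8 to 11. Quantile normalization gave 18 for wild-type 2-cell embryos over zygotes. For wild-type age the count was 3 with pseudocount 0.1 or only the groups compared, 0 without the filter and 0 to 1 without 1 library. For the effect in 2-cell embryos against zygotes it was 2 without the filter, 8 with quantile normalization and 0 to 7 without 1 library. The Hist1h2bc difference there turned to 0.57 with quantile normalization. For 3-month against 3-week effects it was 1 without the filter, 4 with only the groups compared and 0 to 1 without 1 library. The cause was not tested.

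Same-numbered libraries correlated between -0.0689 and 0.0576 over 19 pairs, and 4 correlated best with their own number, so the numbers were not taken to pair them. With the replicate block 31, 37, 36 and 30 members were called in the 4 deletion comparisons, and 0 for wild-type age. Read depth is unknown, and values near 0 cannot be told from 0.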
